A study of Homo sapiens with 8 samples.

Results

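The transcripts described here are 675 protein-coding entries whose stop codon looked closed to ribosomes in every transgenic library, with and without the noncanonical amino acid NAEK. They came from 82586 entries in all, of which 65001 were endogenous and protein-coding and 1808 of those had a mean coding density of at least 100 RPKM over 8 libraries. RPKM is the number of ribosome footprints scaled to region length and library size. For each entry the footprint density of the first extended region, read here as the stretch after the annotated stop codon, was divided by the coding density. A ratio under 2% over the 4 HEK293T libraries left 922 of the 1808, and a ratio under 2% in each of the 4 transgenic libraries left the 675. The same limit removed 247 transcripts that were clean in HEK293T cells and reached 2% in 1 or more transgenic libraries, and 886 were not clean in HEK293T cells. The transcripts were thus chosen by the first extended ratio and the coding density in all 8 libraries, so the ratio is given below as a description with no test.

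Translation ends when a stop codon enters the ribosomal A site and the release factor eRF1, with the GTPase eRF3, frees the finished protein. The ribosome is then split and recycled, so footprints after a stop codon are normally few. A pyrrolysyl-tRNA that reads the amber codon UAG can compete with eRF1 once its synthetase has charged it, and the ribosome then reads on until the next stop codon in frame. NAEK is an azide-bearing lysine derivative that serves as the amino acid for that synthetase.

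In ribosome profiling, nuclease removes mRNA that no ribosome covers and the protected fragments are sequenced. The libraries formed 4 groups of 2. They were transgenic cells with NAEK at 1 mM, transgenic cells without it, HEK293T cells with NAEK at 1 mM and HEK293T cells without it. HEK293T is an established human embryonic kidney line, and the transgenic cells are HEK293T that stably carry Mb pyltRNA. Per the tables, the transgenic libraries also held a pyrrolysyl-tRNA synthetase entry and a GFP39 reporter entry. The labels do not say whether the transgenic line was 1 clone, what drove the transgenes, or whether replicates came from different cultures. All p-values therefore rest on the spread among these libraries, which may be technical. The tables give transcript identifiers without gene names or sequences, so transcripts are named by identifier and the cell line could not be set against marker genes. Which of the 3 stop codons each transcript ends with was not analysed here.

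Whole reads were recovered from the RPKM values, and library totals ran from 12923243 to 20569590 reads. The synthetase entry had 5538 to 5820 RPKM in transgenic libraries, against 7.24 to 11.4 RPKM in HEK293T libraries. The first extended region of the GFP39 entry held 20.9% and 19.1% of its coding density in transgenic libraries with NAEK, against 3.86% and 3.42% without it. Coding regions held 89.0% to 89.1% of all reads in every library, while 1.29% to 1.48% lay in first and 1.01% to 1.15% in second extended regions.

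The residual density after the closed stops was below 1% of the coding density in every library. Summed over the 675 transcripts, first extended density was 0.366% and 0.420% of coding density in transgenic cells with NAEK, and 0.391% and 0.382% in transgenic cells without it. In HEK293T cells it was 0.449% and 0.513% with NAEK, and 0.466% and 0.471% without it. Within each line the libraries with NAEK lay on both sides of those without it. The group means were 0.393% ± 0.0378 and 0.387% ± 0.00641 in transgenic cells with and without NAEK, and 0.481% ± 0.0448 and 0.468% ± 0.00383 in HEK293T cells with and without it (SD, n = 2 each). These sums include the coding density of 154 transcripts without a first extended read in any library. Over the 521 with such reads, the density was 0.478% and 0.552% in transgenic cells with NAEK and 0.515% and 0.507% without it. In HEK293T cells it was 0.587% and 0.675% with NAEK and 0.614% and 0.626% without it. For the 675 and for the 521, all 4 transgenic values were below all 4 HEK293T values. The choice of transcripts bears on that order, because the limit applied to each transgenic library but only to the mean of the HEK293T libraries. With the limit applied to each HEK293T library as well, 588 transcripts remained. Their summed density was 0.338% and 0.388% in transgenic cells with NAEK and 0.345% and 0.324% without it. In HEK293T cells it was 0.364% and 0.413% with NAEK and 0.380% and 0.375% without it. The lines overlapped with NAEK, but without it both transgenic libraries lay below both HEK293T libraries. With the lines exchanged in the rule, 674 transcripts were chosen. Transgenic cells then had the highest value, with 0.430% and 0.497% with NAEK and 0.389% and 0.369% without it. HEK293T cells had 0.386% and 0.434% with NAEK and 0.409% and 0.394% without it. The lines again overlapped with NAEK, while without it the transgenic libraries again lay below the HEK293T libraries.

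**Figure D1:**
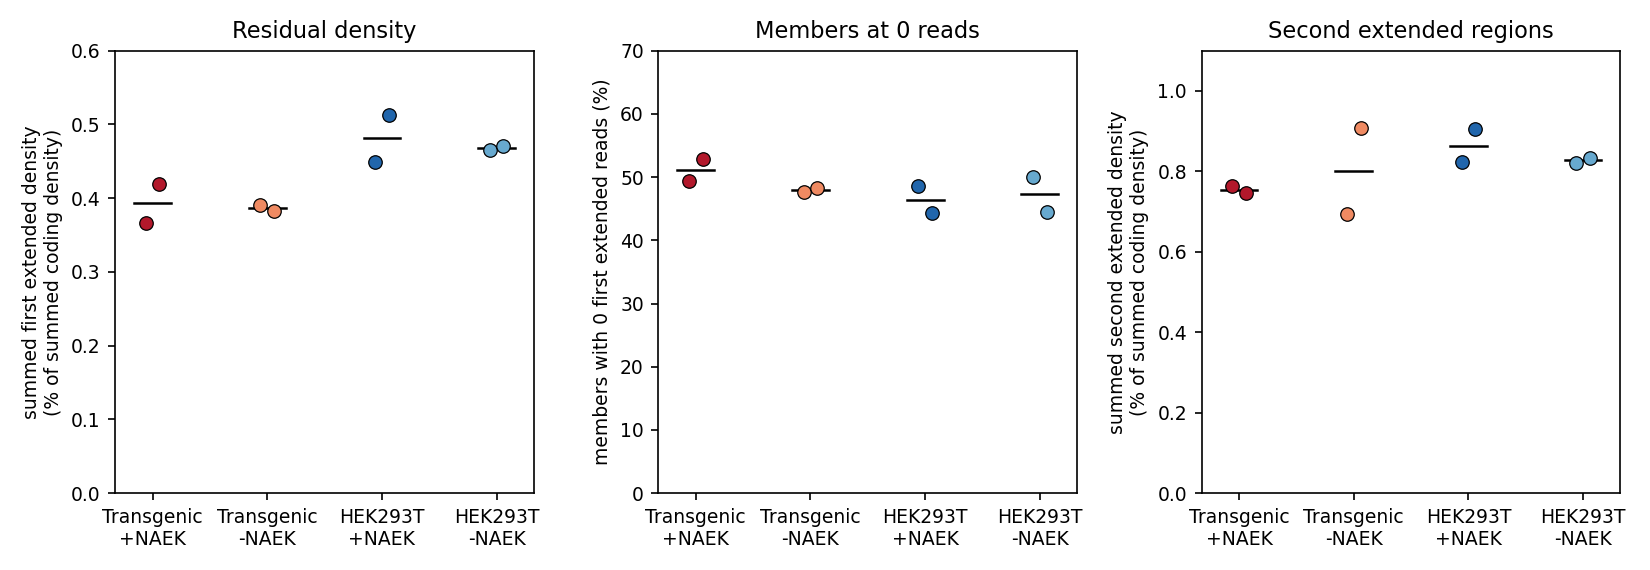
Left, first extended density summed over the 675 closed stops as a percent of their summed coding density, including the 154 without a first extended read. Middle, percent of the 675 with 0 first extended reads; right, the same measure as on the left for the second extended region. Each point is 1 library, bars are group means (n = 2), and all axes start at 0. The residual density lay between 0.366% and 0.513% in all 8 libraries.

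As raw footprints the background was thin. In transgenic cells with NAEK, 1681 and 1419 reads fell in the first extended regions beside 2136556 and 1627179 reads in the coding regions. Without NAEK the transgenic libraries held 1701 and 1809 such reads. HEK293T cells held 2179 and 1996 reads with NAEK, and 1948 and 2085 reads without it. As a share of the reads in both regions, the libraries with NAEK gave 0.0786% (exact Clopper-Pearson 95% interval 0.0749 to 0.0825) and 0.0871% (0.0827 to 0.0918) in transgenic cells, and the libraries without NAEK gave 0.0754% (0.0719 to 0.0791) and 0.0732% (0.0699 to 0.0767). HEK293T cells gave 0.0868% and 0.0948% with NAEK, and 0.0889% and 0.0866% without it. These intervals reflect counting error alone and take no account of PCR duplicates.

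Single transcripts were mostly read as 0 or as a few footprints. First extended reads were absent for 333 and 357 of the 675 in transgenic cells with NAEK and for 322 and 326 without it. They were absent for 328 and 299 in HEK293T cells with NAEK, and for 338 and 300 without it. Over all libraries together, 521 transcripts had at least 1 first extended read, 147 had reads in all 8 libraries and 134 had them in 1 to 3. The 521 had a median of 12 reads over the 8 libraries, 217 of them had under 10, and 67 had at least 50. Their mean ratio over the 8 libraries had a median of 0.483%. It was under 0.1% for 40, from 0.1% to under 1% for 419 and from 1% to 2% for 62. The mean was higher with NAEK than without it for 239 transcripts and lower for 237 in transgenic cells, and higher for 249 and lower for 242 in HEK293T cells.

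**Figure D2:**
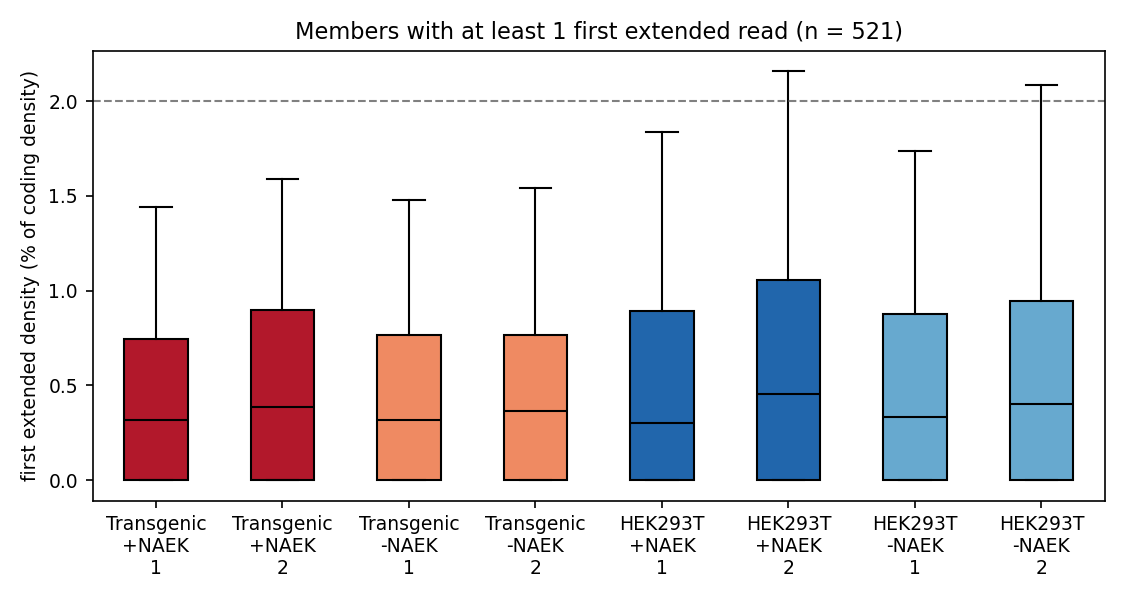
First extended density as a percent of coding density for the 521 closed stops with at least 1 first extended read. Boxes span the quartiles with the median as a line, whiskers run from the 5th to the 95th percentile over transcripts, and the dashed line is the 2% limit that each transgenic library had to meet. Medians lay between 0.300% and 0.454%; whiskers pass the limit only in 1 HEK293T library with NAEK and 1 without it, which the rule allowed.

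The remaining 154 transcripts, 22.8% of the 675, had no first extended read in any library. They are all the entries of at least 100 RPKM without such a read, since a ratio of 0 meets the rule. Their median coding density was 213 RPKM, against 228 RPKM for the 521 with reads. The length of a region is recovered from its reads, so that a first extended region of no length and one without footprints cannot be told apart here, and no limit can be set on their ratio. Second extended reads were present for 19 of the 154 and absent for 135. ENST00000621411 had the highest coding density of the 675, with 5734 and 6408 RPKM in transgenic cells with NAEK and 6214 and 6830 RPKM without it, and 6108 and 6542 RPKM in HEK293T cells with NAEK and 6777 and 7190 RPKM without it. It had no first or second extended read in any library, beside 40560 and 34036 coding reads in the transgenic libraries with NAEK. ENST00000343677, another of the most densely translated, with 2730 to 4941 RPKM, also had none.

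Other heavily translated transcripts had a steady trickle after the stop. ENST00000233143, with 4067 to 6290 RPKM over a coding region of 135 nt, held 55 and 56 reads in its 102 nt first extended region in transgenic cells with NAEK, and 48 and 57 without it. HEK293T cells held 59 and 58 reads with NAEK, and 42 and 60 without it. Its ratio was 0.727% and 1.04% in transgenic cells with NAEK and 0.584% and 0.661% without it, and 0.447% and 0.635% in HEK293T cells with NAEK and 0.406% and 0.647% without it. The transgenic libraries with NAEK were the highest of the 8 for this transcript, by a small margin in 1 of them.

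ENST00000316084, with 3232 to 4120 RPKM, showed the reverse order between lines. Its 39 nt region held 12 and 5 reads in transgenic cells with NAEK and 16 and 19 without it, against 35 and 22 in HEK293T cells with NAEK and 31 and 21 without it. The ratio was 0.486% and 0.271% in transgenic cells with NAEK and 0.658% and 0.644% without it, and 1.35% and 1.05% in HEK293T cells with NAEK and 1.27% and 0.851% without it. ENST00000361427 had among the most first extended reads, 514 in a region of 375 nt, and its ratio ran from 0.487% to 1.12%. The 10 transcripts with the most such reads held 3894 of the 14818 in all, or 26.3%. Among them ENST00000619352, with 526 reads, has the same recovered coding and first extended lengths as ENST00000361427. ENST00000501597 and ENST00000546591, with 451 and 432 reads, match each other in the same way. Each pair may share reads.

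Long first extended regions after abundant coding regions could also be nearly empty. ENST00000369158 had 2321 to 3406 RPKM over 411 nt and a first extended region of 588 nt. That region held 2 and 10 reads in transgenic cells with NAEK and 13 and 9 without it, and 14 and 9 reads in HEK293T cells with NAEK and 3 and 17 without it. The ratio stayed between 0.00691% and 0.0499% in all 8 libraries. ENST00000403683, with the same recovered lengths and nearly the same coding density, averaged 0.0305%, and the pair may share reads. The longest first extended region was the 810 nt of ENST00000391440. It held 8 and 7 reads in transgenic cells with NAEK and 8 and 7 without it, against 3 and 3 in HEK293T cells with NAEK and 9 and 8 without it, beside a coding density of 123 to 153 RPKM. Its ratio ran from 0.132% to 0.458%.

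Near-identical entries occur among the 675. With the same recovered coding length and coding densities within 10% in every library as the criterion, 155 transcripts fell in 63 groups of up to 7, and 583 were left when each group was counted once. No pair had identical coding values. The sources used here do not state how reads shared by isoforms were divided.

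First extended regions of the 521 ran from 8 to 810 nt, with quartiles of 44, 79 and 132 nt, and 85.4% of the recovered lengths were whole codons. Where reads are few, a recovered length can be shorter than the real one, and the recovered reads are then too low as well. The shortest regions described below may include such lengths. The 247 transcripts that reached 2% in a transgenic library had a median of 50 nt, with 94.3% whole codons. The 886 not clean in HEK293T cells had a median of 30 nt, with 97.0% whole codons. Reads and length both enter the ratio that sorted these sets, so their lengths are a description. The 521 were split by length into 4 classes of 126 to 135 transcripts. The longest regions, 134 to 810 nt, had summed densities of 0.433% ± 0.0261 and 0.382% ± 0.00348 in transgenic cells with and without NAEK, and 0.435% ± 0.00693 and 0.413% ± 0.0402 in HEK293T cells with and without it (SD, n = 2 each). The shortest regions, 8 to 44 nt, had 0.416% ± 0.0993 and 0.562% ± 0.0151 in transgenic cells with and without NAEK, and 0.716% ± 0.113 and 0.719% ± 0.0631 in HEK293T cells with and without it. In HEK293T cells and in transgenic cells without NAEK the longest regions were lowest of the 4 length classes. In transgenic cells with NAEK the shortest regions had the lowest mean, and their libraries, at 0.346% and 0.486%, lay on both sides of the longest regions' 0.415% and 0.452%. A median transcript of the shortest class had 6 reads over 8 libraries, against 26 in the longest.

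**Figure D3:**
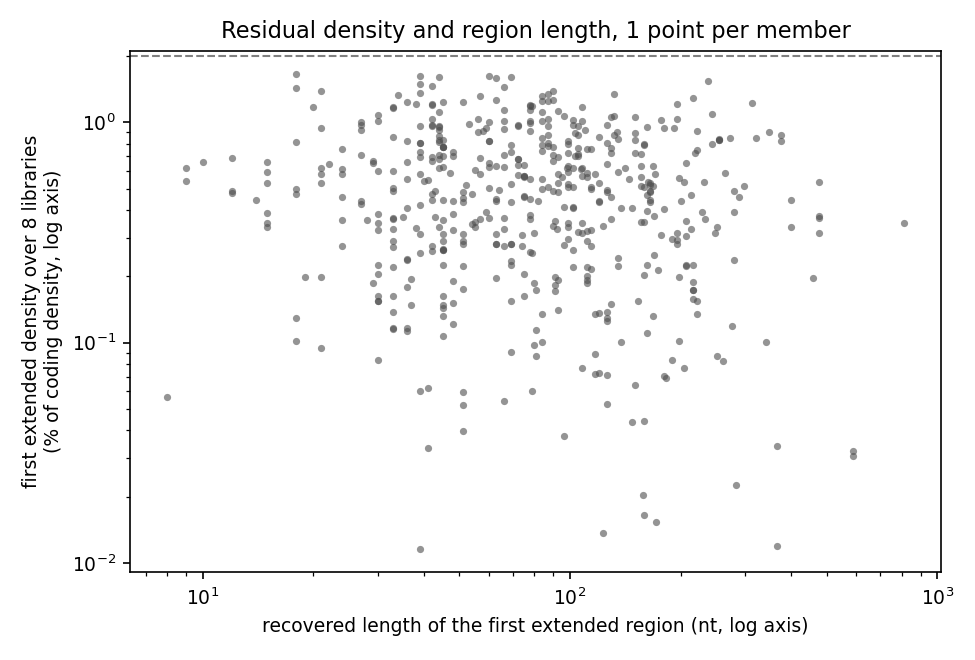
Mean first extended density over 8 libraries, as a percent of coding density, against the recovered length of the first extended region for the 521 closed stops with reads, 1 point each, both axes logarithmic. The dashed line marks 2%. Points lie between 0.0116% and 1.65%, and lengths run from 8 to 810 nt.

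Depth limited how firmly a single stop could be called closed. A count of 3 reads, taken as the limit that a count of 0 allows, lay under 2% of coding density for 410 and 359 of the 521 transcripts in the transgenic libraries with NAEK and for 419 and 428 in those without it. It lay there for 424 and 407 in HEK293T libraries with NAEK, and for 407 and 419 without it. In all 4 transgenic libraries at once it lay under 2% for 359 transcripts, 68.9% of the 521, and under 5% for 486. For the others, there was a transgenic library in which a count of 0 would leave a ratio of 2% possible. The 359 had a median first extended length of 108 nt. Their summed density was 0.497% and 0.568% in transgenic cells with NAEK and 0.519% and 0.514% without it, and 0.582% and 0.651% in HEK293T cells with NAEK and 0.617% and 0.603% without it. Among these 359, 79 and 98 were at 0 reads in transgenic libraries with NAEK and 87 and 86 in those without it, against 79 and 66 in HEK293T libraries with NAEK and 93 and 71 without it.

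The limit itself divided transcripts that differed by single reads. The 5 just inside it had a highest transgenic ratio of 1.97% to 1.99%, and the 5 just outside had one over 2%, up to 2.03%. ENST00000568588, at 1.99% in a transgenic library with NAEK, held 8 and 3 reads with NAEK and 5 and 7 without it in transgenic cells, and it reached 3.10% in a HEK293T library with NAEK. ENST00000323224, just inside at 1.97%, held 10 and 6 reads in transgenic cells with NAEK and 0 and 0 without it. In HEK293T cells it held 5 and 6 reads with NAEK and 1 and 2 without it. For the others just inside, the ratios with and without NAEK overlapped in transgenic cells. ENST00000522819, the first outside, passed the limit on 2 reads in a transgenic library without NAEK and had 0 and 1 read in those with NAEK. ENST00000368809, also just outside, looked different by its reads, which were 26 and 13 in transgenic cells with NAEK and 3 and 2 without it, against 3 and 1 in HEK293T cells with NAEK and 3 and 3 without it.

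To read the ratio where it did not choose the transcripts, the rule was applied without both libraries of a group and the chosen entries were then read in the group left out. Without the transgenic libraries with NAEK, 799 entries were chosen. Of these, 71 (8.89%, interval 7.01 to 11.1) and 101 (12.6%, 10.4 to 15.1) were at or over 2% in the 2 libraries left out. Without the transgenic libraries lacking NAEK, 730 entries were chosen and 28 (3.84%) and 29 (3.97%) reached 2%. For HEK293T cells with NAEK 678 were chosen and 25 (3.69%) and 41 (6.05%) reached it, and for HEK293T cells without NAEK 668 were chosen and 25 (3.74%) and 34 (5.09%) reached it. The intervals are exact Clopper-Pearson and take the entries as independent, which near-identical entries are not.

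In transgenic cells the mean share at or over 2% was 10.8% ± 2.65 with NAEK and 3.90% ± 0.0969 without it (SD, n = 2 each), a difference of 6.86 percentage points without overlap. In HEK293T cells it was 4.87% ± 1.67 with NAEK and 4.42% ± 0.953 without it, and the groups overlapped. Each group was read on its own set of entries, and the entries for the libraries without NAEK had to be under 2% in those with it, or in their mean for HEK293T cells. These shares are therefore a description with no test.

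For a test on 1 set of entries, the choice was made in the other line alone, by a mean ratio under 2% and a mean coding density of at least 100 RPKM in that line. The 4 HEK293T libraries chose 927 entries. In transgenic cells 115 (12.4%, interval 10.4 to 14.7) and 149 (16.1%, 13.8 to 18.6) of them were at or over 2% with NAEK, against 71 (7.66%, 6.03 to 9.56) and 64 (6.90%, 5.36 to 8.73) without it. The difference was 6.96 percentage points without overlap, and the two-sided exact permutation p was 0.33, the smallest that 2 libraries against 2 allow. Both libraries at once were over the limit for 65 of the 927 with NAEK, against 12 without it. The 4 transgenic libraries chose 994 entries. In HEK293T cells 142 (14.3%) and 176 (17.7%) of them were at or over 2% with NAEK, against 136 (13.7%) and 170 (17.1%) without it, and the groups overlapped (exact permutation p = 0.667). Both HEK293T libraries at once were at or over the limit for 84 of the 994 (8.45%) with NAEK and 75 (7.55%) without it.

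Entries over the limit in both libraries left out were 45 of 799 (5.63%) in transgenic cells with NAEK, against 2 of 730 (0.274%) without it. They were 6 of 678 (0.885%) in HEK293T cells with NAEK and 4 of 668 (0.599%) without it. At 5% of coding density, 18 and 27 of the 799 passed in the transgenic libraries with NAEK, 13 of them in both, against 2 and 1 of the 730 without it, none in both. In transgenic cells with NAEK most entries chosen in the other 6 libraries stayed under 2% there too. The chosen entries include those without a first extended read in any library, and others too thin for a count of 0 to exclude 2%. For such entries, staying under 2% does not show closure. They also count in the denominators of the other shares read in libraries left out. Summed density of the 799 was 0.653% and 0.751% in transgenic cells with NAEK. It was 0.463% and 0.447% for the entries chosen without the transgenic libraries lacking NAEK, read in those libraries.

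When only 1 library was left out at a time, its partner still took part in the choice. The shares at or over 2% were 3.71% and 7.53% in transgenic cells with NAEK and 3.71% and 3.83% without it, and 4.01% and 6.89% in HEK293T cells with NAEK and 4.02% and 5.63% without it. Within each line the groups overlapped, as did the lines with NAEK. Without NAEK the transgenic libraries lay below the HEK293T libraries. The choice bears on that order, because the limit applied to each remaining transgenic library but only to the mean of the remaining HEK293T libraries. In every library left out, 26 to 55 of 671 to 730 entries reached a limit that they had met elsewhere.

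**Figure D4:**
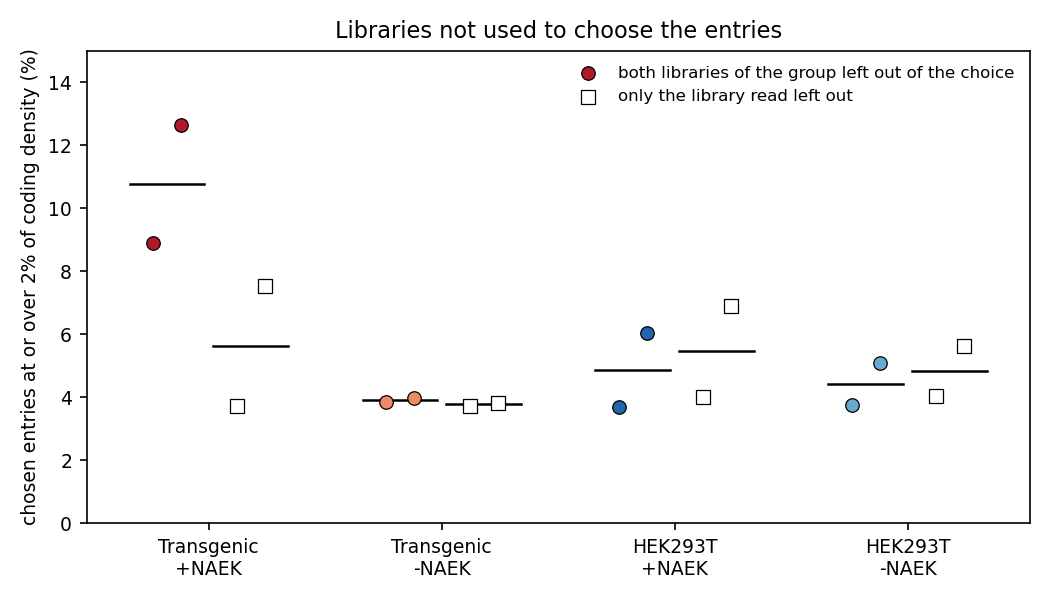
Percent of chosen entries at or over 2% of coding density, read in libraries that were not used to choose them. Filled circles, both libraries of a group left out of the choice; open squares, only the library read left out; bars, means of 2 libraries. The circles stand at 8.89% and 12.6% for transgenic cells with NAEK and between 3.69% and 6.05% in the other groups.

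Coding density entered the rule as the mean over the 8 libraries and as the denominator of the ratio in each transgenic library and over the HEK293T libraries. The comparisons of coding density below are therefore not fully independent of the choice. The 675 had a median of 224 RPKM and ran from 101 to 6475 RPKM. limma was fitted on log2(RPKM + 1) over 46156 coding regions, with Benjamini-Hochberg adjustment over all of them and a threshold of 0.05. With NAEK against without it in transgenic cells, 0 of the 675 passed (0% of all regions tested), and 59 had an unadjusted p under 0.05 beside 5.93% of all regions. In HEK293T cells 0 passed (0% of all regions), and 14 had an unadjusted p under 0.05 beside 3.02%. Between transgenic and HEK293T cells without NAEK 0 passed (0.0065% of all regions), with 107 under 0.05 unadjusted beside 9.84%. The interaction of line and NAEK gave 0 (0% of all regions), with 23 under 0.05 unadjusted beside 3.82%. The unadjusted share of the 675 was larger than that of all regions for NAEK in transgenic cells and between lines without NAEK. It was smaller for NAEK in HEK293T cells and for the interaction. The 675 all had a mean of at least 100 RPKM, while all regions needed a mean of only 1 RPKM, so the shares are not like for like. Median log2 changes of the 675 lay between -0.05 and 0.00 in the 5 comparisons, and those of all regions between -0.02 and 0.04.

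Between the lines with NAEK, 194 of the 675 had an unadjusted p under 0.05, a larger share than the 15.6% of all regions. After adjustment 2 of the 675 passed, beside 0.013% of all regions. Both were lower in transgenic cells. ENST00000309083 had 97.4 and 112 RPKM in transgenic cells with NAEK and 162 and 153 RPKM without it, against 267 and 311 RPKM in HEK293T cells with NAEK and 292 and 299 RPKM without it. All transgenic libraries lay below all HEK293T libraries, and those with NAEK lay lowest. Its log2 difference between lines with NAEK was -1.46 (SE 0.11, limma adjusted p = 0.0106), and that between lines without NAEK was -0.91 (limma adjusted p = 0.121). ENST00000619580 had the same recovered coding length of 309 nt and nearly the same values, 96.1 and 123 RPKM in transgenic cells with NAEK against 270 and 309 RPKM in HEK293T cells with NAEK. It differed by -1.40 (SE 0.13, limma adjusted p = 0.0455). The pair belongs to 1 group of near-identical entries and may not be independent.

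Both calls ended with no filter on low values, without the variance trend or with only the libraries compared in the fit. Where a group had to hold 50 reads per library, 35 of the 675 passed, beside 513 of all 31146 regions tested. Leaving out replicate 1 of transgenic cells with NAEK or replicate 2 of HEK293T cells with NAEK ended both calls, with adjusted p of 0.103 and 0.119 for ENST00000309083 and 0.152 and 0.217 for ENST00000619580. Without replicate 1 of HEK293T cells with NAEK, ENST00000619580 alone lost its call (adjusted p = 0.131). Few footprints followed either stop, 18 for ENST00000309083 and 21 for ENST00000619580 over the 8 libraries, in regions of 207 nt. ENST00000343677, the silent transcript of 642 nt named above, had 2730 and 2874 RPKM in transgenic cells with NAEK and 4331 and 4278 RPKM without it, against 4459 and 4478 RPKM in HEK293T cells with NAEK and 4589 and 4941 RPKM without it. The libraries with NAEK of the transgenic line stood below the other 6. Its log2 changes of -0.62 with NAEK in transgenic cells and -0.67 between lines with NAEK did not pass (limma adjusted p = 0.390 and 0.0691).

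**Figure D5:**
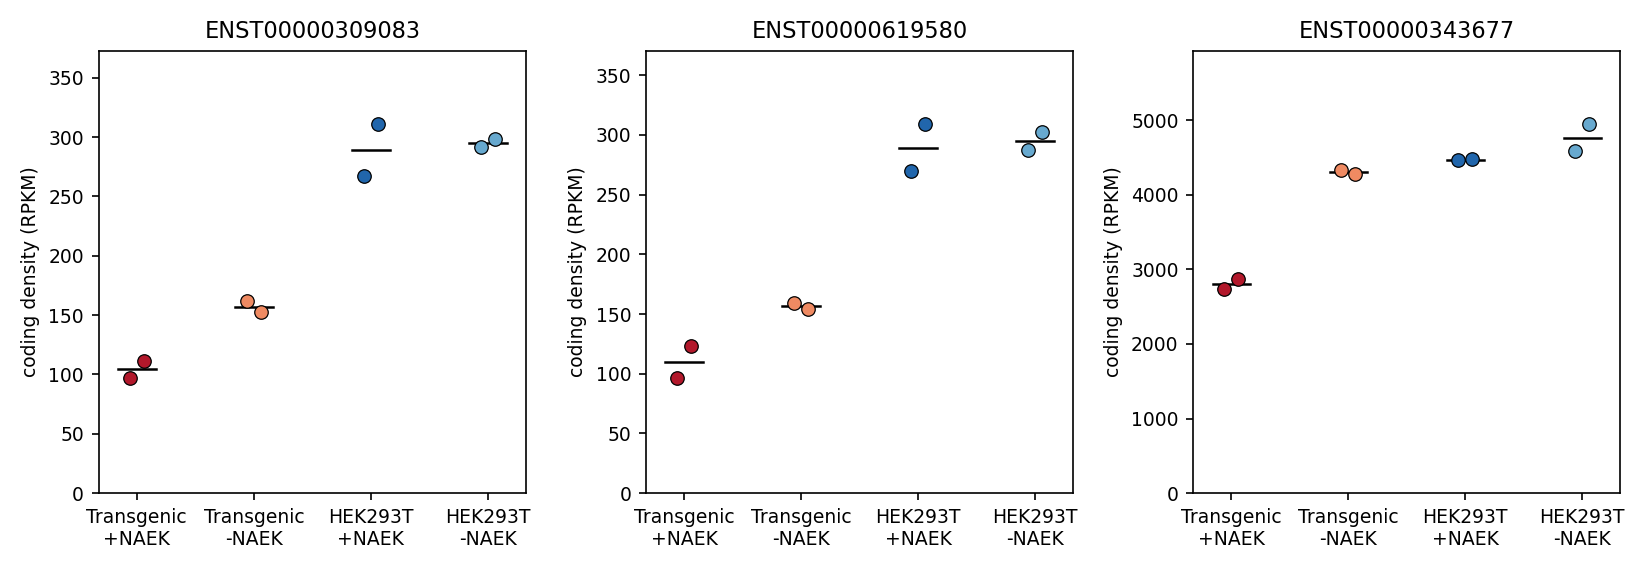
Coding density in RPKM of ENST00000309083, ENST00000619580 and ENST00000343677 in each library; points are libraries, bars are group means (n = 2), and axes start at 0. The first 2 are lowest in transgenic cells with NAEK, at 97.4 to 112 and 96.1 to 123 RPKM.

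The second extended region, read as the stretch after the next stop codon, did not enter the rule. Reads were seen there for 245 of the 675 (36.3%), against 129 of the 247 (52.2%) that reached 2% in a transgenic library and 540 of the 886 (60.9%) not clean in HEK293T cells. A mean second extended density of at least 2% of coding density was found for 23 of the 675 (3.41%), 9 of the 247 (3.64%) and 124 of the 886 (14.0%). The 675 include 154 transcripts without a first extended read in any library, and 135 of these had no second extended read either. The 247 and the 886 hold 0 transcripts without a first extended read, so the sets are not like for like. The sets also differ in coding density, with medians of 224, 163 and 168 RPKM, and these shares were not tested. The first extended mean exceeded the second for 446 of the 675 and was below it for 94, and 135 were at 0 in both.

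Summed second extended density was 0.763% and 0.746% of coding density in transgenic cells with NAEK and 0.694% and 0.907% without it, and 0.822% and 0.905% in HEK293T cells with NAEK and 0.821% and 0.833% without it. The groups with and without NAEK overlapped in transgenic cells (exact permutation p = 1) and in HEK293T cells (exact permutation p = 0.667), as did the lines without NAEK (exact permutation p = 1). With NAEK, the transgenic libraries lay below the HEK293T libraries by 0.109 percentage points (exact permutation p = 0.33, the smallest possible). That order turned without the 10 transcripts with the most second extended reads, which held 83.1% to 90.4% of those reads. The rest summed to 0.207% and 0.168% in transgenic cells with NAEK and 0.145% and 0.140% without it, and to 0.174% and 0.147% in HEK293T cells with NAEK and 0.191% and 0.135% without it. In this remainder the transgenic libraries with NAEK lay above those without it (exact permutation p = 0.33, the smallest possible), and the other comparisons overlapped. limma tested 80 second extended regions of the 675 among 3238, and 0 passed in any of the 5 comparisons. Of all 3238, 0.0618% passed for NAEK in transgenic cells, 0% for NAEK in HEK293T cells, 0.0309% for the lines without NAEK, 0.0618% for the lines with NAEK and 0.0309% for the interaction. At an unadjusted p under 0.05 there were 8, 7, 8, 13 and 10 of the 80 in these comparisons, beside 6.92%, 3.95%, 4.63%, 10.6% and 5.03% of all 3238. A region entered this test only with at least 10 reads.

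A group of 4 of the 675, chosen after their values were seen, had a second extended density above the coding density and 0 first extended reads in all 8 libraries. With no such read, no limit can be set on their first extended ratio, and closure was not shown for them. ENST00000409468, with a coding density of 196 to 311 RPKM, had a second extended region of 69 nt. That region held 154% and 178% of coding density in transgenic cells with NAEK and 187% and 144% without it, and 148% and 175% in HEK293T cells with NAEK and 172% and 167% without it. ENST00000599539, over 42 nt, had 224% and 234% in transgenic cells with NAEK and 195% and 268% without it, and 202% and 201% in HEK293T cells with NAEK and 232% and 177% without it. In each line the libraries with and without NAEK overlapped for both transcripts. With NAEK, the transgenic libraries lay above the HEK293T libraries for ENST00000599539. ENST00000628059, over 72 nt, varied more, with 163% and 138% in transgenic cells with NAEK, 137% and 370% without it, 258% and 380% in HEK293T cells with NAEK and 219% and 308% without it. ENST00000496706 is its near-identical partner. A second extended density over the coding density was found for 18 of the 886 transcripts not clean in HEK293T cells and for 0 of the 247.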

How the data were processed

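Ribosome profiling libraries were prepared with the TruSeq Ribo Profile kit, per the labels' protocols. The submitters' processing notes name Bowtie 1.2.2 and hg38. The authors deposited 4 tables of RPKM per transcript in coding, first and second extended regions, per the file headers; how extended regions were defined and isoforms handled was not stated in the sources read here.

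Whole reads were recovered from RPKM steps, with the 1290 nt synthetase entry fixing each total; at least 99.997% of values came out whole within 0.01 reads. Recovered reads served for depth, intervals and floors (3 reads). Lengths are the shortest that turn every value into whole reads, so lengths and reads of thin regions can both be underestimated.

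Group differences in log2(RPKM + 1) were tested with limma 3.58.1 (R 4.3.3), using a variance trend and all 8 libraries together; the pseudocount understates fold changes where RPKM is low. The filter was a mean of 1 RPKM for coding regions, and 10 reads plus a mean of 50 coding reads for second extended regions. A simulation for NAEK in transgenic cells used normally distributed noise and changed 100 regions at each size. The changed regions were drawn only from those above a set mean density, so the shares found do not cover the lowest regions. In a fit of 46156 coding regions, 91% of 2-fold and 100% of 8-fold changes were found, with 16 false calls. Among 3238 second extended regions the shares were 11% and 87%, with 5 false calls. The shares found hold for the simulated noise and may be lower in the measured data. In the measured coding fit, ENST00000619580 differed by -1.40 on the log2 scale between lines with NAEK. That is more than 2-fold, yet it passed only narrowly (limma adjusted p = 0.0455). A lack of calls therefore does not show that 2-fold changes were absent. Single values were tested with exact permutation tests by full enumeration, and intervals came from scipy 1.17.1. Columns were matched to samples by the headers and the sample titles.

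The members and lists were chosen with earlier results of these data known. Named transcripts were the 10 with the highest coding density, the 10 with the most first extended reads, the 5 longest regions, the 5 on each side of the limit and members past limma's threshold, of which those that show the range are described. Functional gene lists, counts of 1 transcript per gene, the 5 longest regions without reads and sequence features were not used here, since identifiers were not paired with gene names.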

Additional observations from a re-analysis of the deposited data

Results flagged for a closer look

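The coding density of ENST00000546591, a closed stop with 1 of the highest coding densities, stood lower with NAEK in transgenic cells and higher with NAEK in HEK293T cells in every library. It had 2833 and 2646 RPKM in transgenic cells with NAEK against 3811 and 3079 RPKM without it, a mean that fell by 706 RPKM. HEK293T cells had 3215 and 3360 RPKM with NAEK against 3162 and 3086 RPKM without it. The interaction of line and NAEK was -0.40 on the log2 scale (SE 0.16) and did not pass (limma adjusted p = 1.0). ENST00000501597, its near-identical partner, has the same recovered coding length of 78 nt, so the entries may share reads. It had 2795 and 2711 RPKM in transgenic cells with NAEK against 3776 and 3044 RPKM without it. In HEK293T cells it had 3210 and 3358 RPKM with NAEK against 3098 and 3216 RPKM without it, which overlap.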

How the results depend on the processing

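The 675 became 420 with a limit of 1%, 1101 with a limit of 5%, 1136 with a coding minimum of 50 RPKM and 376 with one of 200 RPKM, and between 671 and 730 when 1 library was left out. Residual first extended density is given here for transgenic cells with and without NAEK and HEK293T cells with and without it, in that order. It was 0.337%, 0.338%, 0.425% and 0.406% without the 10 transcripts with the most footprints, 0.521%, 0.488%, 0.618% and 0.599% for regions of at least 30 nt, and 0.463%, 0.379%, 0.410% and 0.401% with the lines exchanged in the rule. With the limit in each HEK293T library it moved to 0.335% in transgenic cells without NAEK and to 0.388% and 0.378% in HEK293T cells with and without NAEK. As a mean of ratios it moved to 0.365% and 0.459% in transgenic and HEK293T cells without NAEK, and with near-identical entries counted once to 0.464% in HEK293T cells without NAEK. With 1 library left out it ran from 0.366% to 0.420%, 0.382% to 0.391%, 0.449% to 0.513% and 0.466% to 0.471%. Differences in summed second extended density changed sign. NAEK in transgenic cells gave 0.0449 points without the top 10, 0.0591 for regions of at least 30 nt and 0.0437 without the 4 dense transcripts. NAEK in HEK293T cells gave -0.00242, -0.0214 and -0.00976 under the same settings, and the lines with NAEK gave 0.0271, 0.0622 and 0.0452. The lines without NAEK gave 0.0122 with near-identical entries counted once, and all 4 differences were 0 as a median over transcripts. With 1 library left out they ran from -0.152 to 0.0612, -0.00504 to 0.0776, -0.134 to 0.0797 (lines without NAEK) and -0.150 to -0.0676 (lines with NAEK). In libraries left out of the choice, the difference for NAEK in transgenic cells stayed positive in all 10 alternatives run, from 3.74 to 8.74 points, as did the lines with NAEK in all 9, from 2.69 to 7.77. NAEK in HEK293T cells turned to -0.0856 with a limit of 5% and -0.452 with a coding minimum of 200 RPKM, and ran from -0.729 to 1.63 with 1 library left out. The lines without NAEK turned to 0.425 with a limit of 1% and 0.33 for regions of at least 30 nt, and ran from -1.19 to 0.162 with 1 library left out. The 2 coding calls between lines with NAEK became 1 with a pseudocount of 0.1 and 0 with no filter, without a trend or with only the libraries compared. They became 35, beside 513 of 31146 regions in all, where a group had to hold 50 reads per library. With 1 library left out, ENST00000309083 differed by -1.57 to -1.35 and ENST00000619580 by -1.58 to -1.22 on the log2 scale. That read minimum also gave 2 coding calls between lines without NAEK, beside 71 of 31146 regions in all. For NAEK in transgenic cells it gave 1 second extended call among 7 member regions tested, beside 2 of 540 in all. Replicates with the same number did not deviate together in every pair of groups, so pairing was not established. Coding correlations were 0.0482 for transgenic cells with and without NAEK and 0.137 to 0.324 for the other pairs. Second extended correlations were 0.0171 to 0.0939. With the replicate block, 2 members were called for NAEK in transgenic cells, beside 7 of 46156 regions in all. Between lines with NAEK 31 members were called, beside 263 of 46156 regions in all. The causes of these changes were not tested. ENST00000309083 passed in 6 of 11 alternatives (limma adjusted p 0.00058 to 0.119) and ENST00000619580 in 4 of 11 (0.00248 to 0.217), both lower in transgenic cells in all 11. The exchanged rule, the limit in each HEK293T library (for residual density), near-identical entries, the dense transcripts, the libraries left out of the choice and the choice in the other line alone were chosen after seeing the data. Counting 1 transcript per gene was not run.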
